A study of Mus musculus with 27 samples.

Results

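Positive acute-phase proteins are plasma proteins whose output by the liver goes up during injury and inflammation. The set described is 10 genes fixed by symbol (Saa1, Saa2, Saa3, Apcs, Lcn2, Hp, Orm1, Orm2, Orm3 and Serpina3n) out of 54532 genes in the deposited table, and each symbol matched 1 row. All 10 passed the filter on low values, which 12376 genes of the table passed (1 FPKM or more in 4 or more libraries). FPKM is a fragment count scaled to gene length and to library size.

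The study measured polyadenylated RNA in livers of wild-type C57/BL6J mice after sham surgery or removal of 70% of the liver (partial hepatectomy, PHx). The groups were 24 h after resection with etomoxir (PHx24_ETO, 4 libraries), 24 h after resection (PHx24, 7), 48 h after resection with etomoxir (PHx48_ETO, 4), 48 h after resection (PHx48, 7) and sham (5). Etomoxir, an irreversible inhibitor of the carnitine palmitoyltransferase that admits long-chain fatty acids to mitochondria, was given intraperitoneally (12.5 mg/kg) 4 h ahead of surgery, with a further dose 24 h after surgery in the 48 h group. The labels name neither age nor sex, do not say whether the other mice received a vehicle, and give sham no time. Nor do they say whether libraries are from different animals; the p-values therefore speak of library-to-library spread, part of which may be technical. In RNA from whole liver, fewer cells of a type and less RNA per cell cannot be told apart.

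Acute-phase genes of hepatocytes are switched on mainly by interleukin-6, which signals through gp130 and STAT3, and by interleukin-1 and tumour necrosis factor, which act through NF-kappaB, with the C/EBP factors binding many of their promoters. Removal of liver tissue is a known trigger of this response, since macrophages of the remnant release these cytokines. The proteins bind lipid, haem, iron, microbial surfaces or proteases in plasma.

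Promoter sequences were looked up in RefSeq (GRCm38.p6), where 8 of the 10 genes had an entry, and the 250 bases before the start were searched on both strands. The motif TTGCNNAA, a form of the C/EBP site, was present in 6 of these 8 promoters, against 9.56% of all 32851 promoters in the table. The STAT form TTCNNNGAA was present in 1 of 8 (Apcs), against 7.02% of all promoters. TTCCNGGAA was in 0 of 8, against 0.913%, and the NF-kappaB consensus in 0 of 8, against 7.25%. A match describes these letters and no binding was measured. The stretches around the matches are shown, since the near-identical Saa1 and Saa2 pair and the Orm2 and Orm3 pair each carry the match at almost the same distance from the start. Matches within such a pair are not independent, although each promoter is counted in the 6 of 8. Capitals mark the motif match, read 5′ to 3′ along the gene's strand.
Saa1 (chr7:46743135-46743182, minus strand, match 182 to 175 bases before the start): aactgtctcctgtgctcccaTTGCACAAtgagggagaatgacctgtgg
Saa2 (chr7:46751630-46751677, plus strand, match 183 to 176 bases before the start): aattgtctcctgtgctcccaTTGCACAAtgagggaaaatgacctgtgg
Saa3 (chr7:46715748-46715795, minus strand, match 99 to 92 bases before the start): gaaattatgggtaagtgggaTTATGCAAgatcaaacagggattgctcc
Orm2 (chr4:63362309-63362356, plus strand, match 120 to 113 bases before the start): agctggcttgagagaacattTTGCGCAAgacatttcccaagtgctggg
Orm3 (chr4:63356017-63356064, plus strand, match 121 to 114 bases before the start): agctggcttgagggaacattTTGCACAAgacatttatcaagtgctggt
Apcs (chr1:172895270-172895304, minus strand, match 244 to 236 bases before the start): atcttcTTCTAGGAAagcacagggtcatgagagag

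In Saa3 the match lay on the other strand, so the printed strand shows its reverse complement. The Lcn2 promoter held the match TTGCTCAA, 216 to 209 bases before the start, in a stretch that overlaps exons of other Lcn2 transcripts. Over 250 bases the Saa1 and Saa2 promoters were identical at 94.8% of aligned positions, and those of Orm2 and Orm3 at 85.5%. The genes without a printed stretch lie at chr2:32384633-32388252 (Lcn2, minus strand), chr8:109575128-109579172 (Hp, minus strand), chr4:63344560-63348163 (Orm1, plus strand) and chr12:104406729-104414329 (Serpina3n, plus strand) in GRCm38, and all 10 genes are annotated as protein-coding. The transcripts are alike too. Of all 50-base words in the Saa1 transcripts, 31.1% occurred in those of Saa2, and 20.4% of the Orm1 words occurred in Orm2. Reads of these genes can be shared or lost in counting, and Serpina3n has close relatives in the Serpina3 cluster, so the values of single members of these families are uncertain.

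Total counts ranged from 14903757 to 18446372 per library. Summed hepatocyte markers were high in all 27 libraries (27780 to 71634 FPKM), as the tissue label implies. Some libraries held transcripts of other tissues. Summed skeletal muscle markers were 4805 FPKM in sham library 1, 1830 in PHx24 library 1, 578 in PHx48 library 3 and 84.9 in PHx48_ETO library 4, and summed exocrine pancreas markers were 870 FPKM in sham library 2 and 139 in PHx48 library 3. Counts of called genes were therefore also taken without sham 1, sham 2, PHx24 1 and PHx48 3, a choice made after the data were seen.

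After resection all 10 genes were high at 24 h, and by 48 h their levels had come down, most of them not as far as sham. The 10 genes together gave 4.34 ± 1.95% of all counts in PHx24_ETO and 3.96 ± 0.357% in PHx24 (SD, n = 4 and 7). They gave 1.25 ± 0.309% in PHx48_ETO and 1.41 ± 0.456% in PHx48 (n = 4 and 7), against 0.457 ± 0.133% in sham (n = 5). By edgeR's quasi-likelihood test (adjusted p under 0.05 over all genes tested), 10 of 10 were higher in PHx24_ETO than in sham, where 19.7% of all genes were called higher. In PHx24 against sham 10 of 10 were higher, beside 19.1% of all genes. At 48 h, 7 of 10 were higher in PHx48_ETO than in sham (16.2% of all genes; all but Saa3, Hp and Orm3), and 9 of 10 in PHx48 (19.5%; all but Hp). Without the 4 libraries named above, the same counts were 10 in PHx24_ETO (beside 14.6% of all genes) and 10 in PHx24 (14.7%), and 5 in PHx48_ETO (12%) and 6 in PHx48 (14.5%). The median log2 fold change over the members was 3.80 in PHx24_ETO, 2.99 in PHx24, 1.22 in PHx48_ETO and 1.63 in PHx48, each against sham, while the medians over all genes tested lay between 0.008 and 0.037. The 4 comparisons share the sham libraries.

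**Figure D1:**
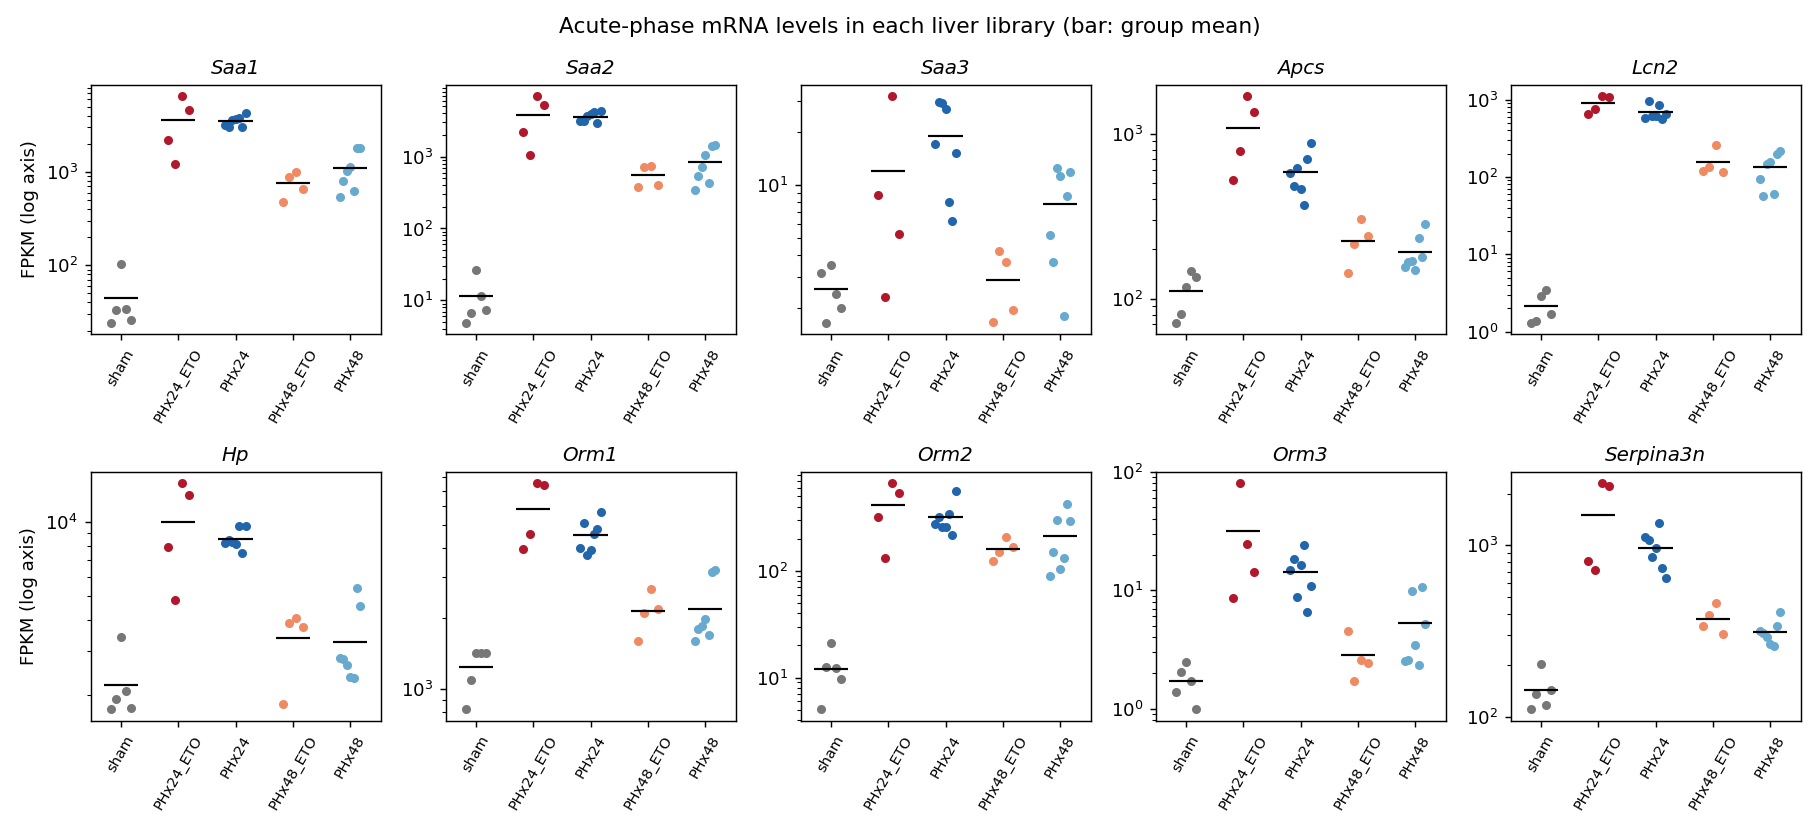
Level of each acute-phase gene in all 27 liver libraries (FPKM, log axis), with sham at the left, then 24 h and 48 h after resection, each with etomoxir left of without. Points are libraries and bars are group means. In PHx24 every library of all 10 genes lies above every sham library.

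The serum amyloid A proteins, small apolipoproteins that displace apolipoprotein A-I from high-density lipoprotein, include 2 abundant members and a scarce member. Saa1 reached 1227, 2219, 4628 and 6459 FPKM in the 4 PHx24_ETO livers, and had a lowest, median and highest value of 2996, 3618 and 4314 FPKM in PHx24. It stood at 478, 649, 889 and 1009 FPKM in PHx48_ETO and at 534, 1031 and 1800 FPKM (lowest, median, highest) in PHx48. In sham livers Saa1 had 24.3, 26.2, 33.5, 33.8 and 104 FPKM. No library of a resected group overlapped sham, and the etomoxir and untreated livers of each time overlapped. The log2 fold change of Saa1 against sham was 6.36 (SE 0.516) in PHx24_ETO, 4.10 (SE 0.467) in PHx48_ETO and 4.65 (SE 0.460) in PHx48, with edgeR adjusted p of 4.42e-09, 6.36e-07 and 3.78e-08.

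Saa2, which lies beside Saa1 on the opposite strand, had a lower level than Saa1 in sham livers. Its levels were 1048, 2188, 5245 and 6907 FPKM in PHx24_ETO, and 2906, 3715 and 4245 FPKM (lowest, median, highest) in PHx24. After 48 h it had 382, 408, 718 and 729 FPKM in PHx48_ETO, and 338, 725 and 1456 FPKM in PHx48. The sham livers held 4.90, 6.66, 7.27, 11.6 and 26.4 FPKM. As for Saa1, all resected livers were above all sham livers. The ratio of Saa2 to Saa1 FPKM, both on the same per-length scale, was 1.01 ± 0.121 in PHx24_ETO and 1.02 ± 0.0481 in PHx24, and 0.739 ± 0.0829 in PHx48_ETO and 0.744 ± 0.104 in PHx48, against 0.255 ± 0.0597 in sham. Because a part of their sequence is shared, this ratio depends on how shared reads were assigned.

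Saa3, which in mice is made by macrophages and fat cells as well as by liver, was far scarcer. By mean FPKM over all 54532 genes of the table it ranked 3174 in PHx24_ETO and 2216 in PHx24, where Hp ranked 3 and 4. It had 2.29, 5.27, 8.83 and 32.1 FPKM in PHx24_ETO, and 6.27, 17.2 and 29.7 FPKM (lowest, median, highest) in PHx24. The 48 h livers had 1.65, 1.94, 3.65 and 4.19 FPKM in PHx48_ETO and 1.78, 8.71 and 12.5 FPKM in PHx48, and sham livers had 1.64, 1.99, 2.40, 3.15 and 3.51 FPKM. Only PHx24 lay wholly above sham, while the other 3 resected groups overlapped it. The log2 fold change against sham was 2.25 in PHx24_ETO (SE 0.609, edgeR adjusted p = 0.00561), 2.91 in PHx24 (SE 0.579, 0.00034), 0.17 in PHx48_ETO (SE 0.619, 0.866) and 1.64 in PHx48 (SE 0.554, 0.022). The PHx24_ETO value rested on library 3: without it the log2 fold change was 1.08 (adjusted p = 0.139). The call in PHx48 was lost without sham 2 or sham 5 (adjusted p = 0.0552 and 0.0527) and without the 4 libraries named above (1.43, adjusted p = 0.144).

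Apcs encodes serum amyloid P component, a pentraxin that binds chromatin and amyloid and is the main acute-phase pentraxin of the mouse. Its levels were 523, 782, 1363 and 1693 FPKM in PHx24_ETO and 368, 576 and 883 FPKM (lowest, median, highest) in PHx24. At 48 h they were 142, 213, 240 and 303 FPKM in PHx48_ETO and 149, 168 and 282 FPKM in PHx48, against 71.4, 80.7, 118, 136 and 148 FPKM in sham. The lowest PHx48_ETO liver fell inside the sham range, and the 3 other resected groups lay above it. Apcs was higher than in sham by a log2 fold change of 3.31 in PHx24_ETO (SE 0.305, edgeR adjusted p = 3.94e-08), 2.43 in PHx24 (SE 0.276, 4.53e-07), 1.04 in PHx48_ETO (SE 0.288, 0.00779) and 0.81 in PHx48 (SE 0.258, 0.0157). Both 48 h calls were lost without the 4 libraries named above (0.76 with adjusted p = 0.108 in PHx48_ETO and 0.55 with 0.203 in PHx48), and the PHx48 call also without sham 1 alone (0.68, adjusted p = 0.0575).

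Lcn2 encodes lipocalin 2, which binds bacterial siderophores and so withholds iron, and which hepatocytes and neutrophils both make. Lcn2 had 651, 745, 1065 and 1102 FPKM in PHx24_ETO and 560, 620 and 968 FPKM (lowest, median, highest) in PHx24. At 48 h it had 115, 119, 134 and 260 FPKM in PHx48_ETO and 56.3, 147 and 218 FPKM in PHx48, against 1.31, 1.39, 1.69, 2.93 and 3.50 FPKM in sham. The lowest resected liver was thus far above the highest sham liver. Among all 12376 genes tested, Lcn2 ranked 1 by log2 fold change in PHx24_ETO against sham (8.70, SE 0.464, edgeR adjusted p = 2.28e-12), and 4 in PHx48_ETO against sham (6.20, SE 0.421, 2.3e-10).

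PHx24 library 2 held the highest Lcn2 and Saa3 of its group (968 and 29.7 FPKM) and also the highest summed neutrophil markers (87 FPKM, against 4.8 to 13.1 in the other 6). S100a8 and S100a9 were the only 2 of the 12 neutrophil markers that passed the filter on low values. Both were higher in PHx24 than in sham (19.1% of all genes) and lower in PHx48 than in PHx24 (5.41%) by edgeR. Neither was called in PHx24_ETO, PHx48_ETO or PHx48 against sham, where 19.7%, 16.2% and 19.5% of all genes were higher. Their PHx24 means were 6.05 ± 9.37 and 10.3 ± 16.2 FPKM, with SDs above the means, against 0.604 ± 0.39 and 1.45 ± 1.28 FPKM in sham. No fit of these 2 genes without PHx24 library 2 is given. The PHx24_ETO libraries had neutrophil sums of 4.24 to 10.8 FPKM and sham libraries of 1.87 to 6.34. Among the 10 markers below the filter, Csf3r averaged 0.523 FPKM in PHx24_ETO and 1.26 FPKM in PHx24, against 0.593 FPKM in sham, and Retnlg 0.831 and 1.08 FPKM, against 0.185 FPKM in sham. Elane, a granule protease, averaged 0.695 FPKM in PHx24_ETO and 0.44 FPKM in PHx24, against 0.0452 FPKM in sham. The other 7 (Cxcr2, Mpo, Ngp, Ltf, Camp, Mmp8 and Ly6g) had group means of 0 to 0.302 FPKM. PHx24 library 5 had 840 FPKM of Lcn2 at the lowest neutrophil sum of its group (4.8 FPKM). Saa3 was 29.5 and 27.1 FPKM in PHx24 libraries 3 and 4, at neutrophil sums of 8.7 and 5.76 FPKM. In PHx24_ETO library 3 Saa3 was 32.1 FPKM at a sum of 8.47 FPKM. The part of neutrophils in the Lcn2 and Saa3 values was not tested.

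Hp encodes haptoglobin, which captures free haemoglobin, and it was the most abundant member per length in every group. Hp had 4836, 7931, 12880 and 14383 FPKM in PHx24_ETO and 7492, 8313 and 9653 FPKM (lowest, median, highest) in PHx24. After 48 h it had 1832, 3755, 3901 and 4078 FPKM in PHx48_ETO and 2339, 2773 and 5382 FPKM in PHx48, against 1741, 1758, 1926, 2058 and 3409 FPKM in sham. All 24 h livers exceeded all sham livers, and both 48 h groups overlapped sham. The log2 fold change against sham was 2.20 in PHx24_ETO (SE 0.297, edgeR adjusted p = 5.27e-06) and 1.99 in PHx24 (SE 0.273, 4.75e-06). At 48 h it was 0.65 in PHx48_ETO (SE 0.291, 0.0932) and 0.60 in PHx48 (SE 0.259, 0.0723), which did not pass the threshold. Without sham 3, the liver with 3409 FPKM, these became 0.85 and 0.80 and passed (adjusted p = 0.0363 and 0.0244).

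**Figure D2:**
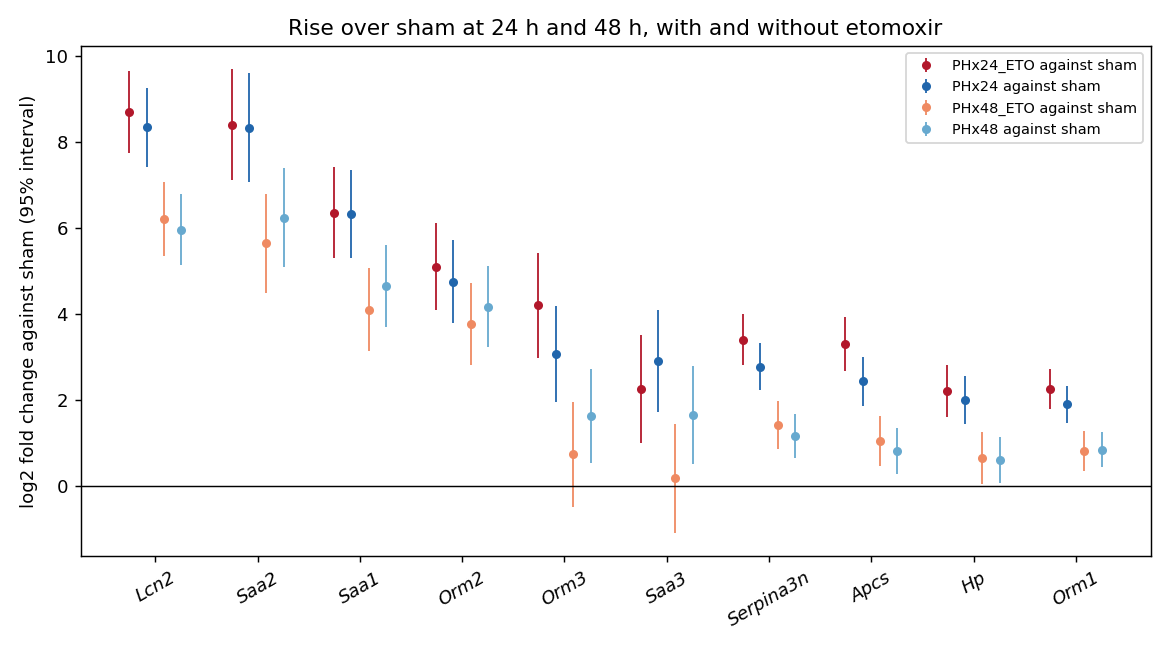
Log2 fold change against sham of each member with its 95% interval (edgeR), by resected group. Lcn2 and Saa2 stand highest at 24 h, and the intervals of Orm3 and Saa3 in PHx48_ETO include 0.

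The orosomucoids (alpha-1-acid glycoproteins) are carriers of basic and lipophilic molecules, and mice have 3 genes side by side on chromosome 4. Orm1, the main form, ranged from 3938 to 7536 FPKM in PHx24_ETO and from 3722 to 5676 in PHx24. It ranged from 1602 to 2661 FPKM in PHx48_ETO and from 1603 to 3216 in PHx48, against 817 to 1427 in sham. Every resected liver was above every sham liver. Its log2 fold change against sham was 2.25 in PHx24_ETO (SE 0.228, edgeR adjusted p = 1.04e-07), 0.81 in PHx48_ETO (SE 0.223, 0.0075) and 0.84 in PHx48 (SE 0.200, 0.00167). Without the 4 libraries named above the PHx48_ETO value was 0.60 (adjusted p = 0.0975).

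Orm2 had 132, 321, 533 and 668 FPKM in PHx24_ETO and 217, 277 and 563 FPKM (lowest, median, highest) in PHx24. The 48 h livers had 124, 151, 166 and 208 FPKM in PHx48_ETO and 90.5, 152 and 427 FPKM in PHx48, against 5.03, 9.64, 12.2, 12.5 and 21.1 FPKM in sham. The 24 h and 48 h livers overlapped, and all lay above sham. On the same per-length scale the ratio of Orm2 to Orm1 FPKM was 0.0678 ± 0.0269 in PHx24_ETO and 0.0697 ± 0.0160 in PHx24, and 0.0758 ± 0.00297 in PHx48_ETO and 0.0947 ± 0.0407 in PHx48, against 0.00957 ± 0.00358 in sham. Log2 fold changes of Orm2 against sham were 5.10 in PHx24_ETO (SE 0.495, edgeR adjusted p = 6.45e-08) and 3.76 in PHx48_ETO (SE 0.470, 2.08e-06), and 4.17 in PHx48 (SE 0.457, 1.52e-07).

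Orm3, the scarcest of the 3, had 8.53, 14.3, 24.4 and 80.3 FPKM in PHx24_ETO and 6.56, 14.8 and 24.1 FPKM (lowest, median, highest) in PHx24. It had 1.70, 2.42, 2.59 and 4.55 FPKM in PHx48_ETO and 2.35, 3.46 and 10.7 FPKM in PHx48, against 0.986, 1.38, 1.70, 2.05 and 2.49 FPKM in sham. Both 24 h groups were wholly above sham and both 48 h groups overlapped it. The log2 fold change against sham was 4.20 in PHx24_ETO (SE 0.594, edgeR adjusted p = 9.28e-06), 3.06 in PHx24 (SE 0.546, 0.000104), 0.73 in PHx48_ETO (SE 0.597, 0.38) and 1.62 in PHx48 (SE 0.531, 0.0186). Without PHx24_ETO library 2, which held 80.3 FPKM, the PHx24_ETO value was 3.18 (adjusted p = 4.61e-05). The PHx48 call was lost without sham 5 (1.45, adjusted p = 0.0529), without PHx48 3 (1.35, 0.0507) and without the 4 libraries named above (1.36, 0.151).

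That same library, PHx24_ETO 2, had the highest summed adipocyte markers of its group (238 FPKM, against 23.4 to 35.6 in the other 3). The sum covers 8 markers. Of the 7 that were tested, 2 were higher and 4 lower in PHx24_ETO than in sham by edgeR (19.7% and 15.6% of all genes). Cidec and Plin4, lipid droplet genes that fat-laden hepatocytes also express, averaged 50.2 ± 75.6 and 18.6 ± 30.4 FPKM in PHx24_ETO. The defining fat cell marker Adipoq averaged 0.0647 FPKM in PHx24_ETO and 4.50 FPKM in sham. In sham 1, where the adipocyte sum was 242 FPKM, Orm3 was 1.38 FPKM. The part of lipid storage or fat tissue in the Orm3 value was not tested.

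**Figure D3:**
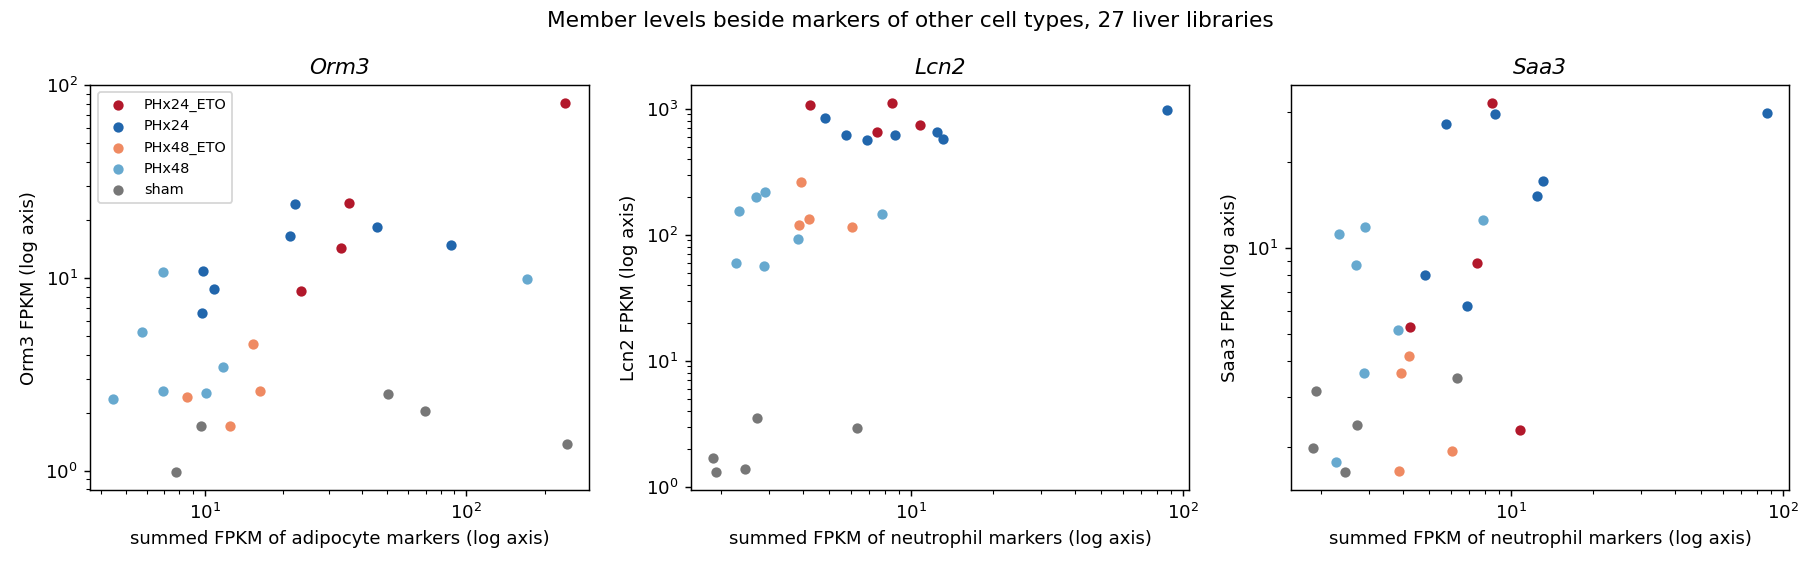
Orm3 against summed adipocyte markers, and Lcn2 and Saa3 against summed neutrophil markers, in all 27 libraries (FPKM, log axes, colour by group). PHx24_ETO library 2 has 80.3 FPKM of Orm3 at a marker sum of 238, and PHx24 library 2 has 968 FPKM of Lcn2 at a marker sum of 87.

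Serpina3n, an inhibitor of serine proteases such as cathepsin G and the mouse relative of human alpha-1-antichymotrypsin, had 720, 810, 2201 and 2303 FPKM in PHx24_ETO and 648, 958 and 1340 FPKM (lowest, median, highest) in PHx24. At 48 h it had 305, 341, 394 and 459 FPKM in PHx48_ETO and 260, 309 and 409 FPKM in PHx48, against 111, 118, 136, 143 and 205 FPKM in sham. All resected livers were above all sham livers. The log2 fold change against sham was 3.40 in PHx24_ETO (SE 0.289, edgeR adjusted p = 9.06e-09), 2.77 in PHx24 (SE 0.266, 4.06e-08), 1.41 in PHx48_ETO (SE 0.274, 0.000355) and 1.15 in PHx48 (SE 0.247, 0.000624).

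Set against sham library by library, every PHx24_ETO liver was above every sham liver for 9 of 10 members (11.2% of all genes tested did so), and every PHx24 liver for 10 of 10 (9.41%). At 48 h this held for 6 of 10 in PHx48_ETO (11.8%) and for 7 of 10 in PHx48 (11.6%). By mean FPKM the 48 h groups stood below the 24 h groups and above sham for all 10 genes. PHx24_ETO ranked above PHx24 in all of them but Saa3, and this neighbouring pair differed by less than the larger SD in 10 of 10. PHx48_ETO and PHx48 differed by more than the larger SD in Saa3 alone (4.98 FPKM against an SD of 4.31), with overlapping libraries. The lower of the 48 h groups was within the larger SD of sham for Saa3, Hp and Orm3.

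Between 24 h and 48 h the set came down in both arms. By edgeR, 9 of 10 members were lower in PHx48_ETO than in PHx24_ETO (7.73% of all genes tested were lower), the exception being Orm2 (-1.34, SE 0.461, adjusted p = 0.05). In PHx48 against PHx24, 8 of 10 were lower (5.41% of all genes), the exceptions being Saa3 (-1.27, SE 0.470, 0.0782) and Orm2 (-0.58, SE 0.343, 0.304). No library of the 48 h group reached the lowest 24 h library for 8 of 10 members with etomoxir (7.71% of all genes) and for 7 of 10 without (2.04%). Lcn2 fell by 2.49 (SE 0.385) on the log2 scale with etomoxir and by 2.38 (SE 0.290) without, with edgeR adjusted p of 0.000111 and 5.21e-06. Saa2 fell by 2.77 (SE 0.537) with etomoxir and by 2.09 (SE 0.396) without, with adjusted p of 0.000937 and 0.000838. Apcs fell by 2.27 and by 1.62 (SE 0.318 and 0.235), and Orm1 fell by 1.44 and by 1.06 (SE 0.241 and 0.180), with adjusted p of 3.59e-05 and 5.01e-05 for Apcs and 0.000228 and 0.000296 for Orm1.

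The scarce members gave the least settled decline. Orm3 fell by 3.47 with etomoxir (SE 0.615, edgeR adjusted p = 0.000393), and by 2.45 without PHx24_ETO library 2 (adjusted p = 0.00227). Without etomoxir it fell by 1.44 (SE 0.431, adjusted p = 0.0288), a call lost when any of 7 libraries (PHx24 2, 4 or 5, or PHx48 1, 2, 4 or 5) was left out, with adjusted p of 0.05 to 0.0682. Saa3 fell by 2.08 with etomoxir (SE 0.649, adjusted p = 0.0306), but its log2 fold change was -0.93 without PHx24_ETO library 3 (adjusted p = 0.332), and the call was also lost without PHx48_ETO 1, 3 or 4 (0.083, 0.0557 and 0.0841).

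The share of the 24 h rise over sham that was left at 48 h, from group mean FPKM, ranged over the members from 3.33% to 66%. For Lcn2 it was 17.4% with etomoxir and 18.9% without, for Hp 15.5% and 17%, for Serpina3n 17% and 20.9%, and for Apcs 11.6% and 16.8%. Saa1 kept 19.8% and 30.5%, Saa2 14.3% and 23.4%, and Orm1 19.5% and 28.8%. Orm2 kept the most, 37.4% with etomoxir and 66% without. The 2 scarce genes kept 3.33% (Saa3) and 3.64% (Orm3) with etomoxir, against 32.2% and 28.1% without. The PHx24_ETO libraries were left out in turn, a choice made after the data were seen, and libraries of the other groups were not. Without PHx24_ETO 3 Saa3 kept 10.9%, and without PHx24_ETO 2 Orm3 kept 7.83%. The Saa3 share with etomoxir is itself uncertain, since its mean was 2.86 ± 1.25 FPKM in PHx48_ETO and 2.54 ± 0.781 FPKM in sham. The share was lower with etomoxir for all 10, though not for Hp (19%) and Serpina3n (21.1%) once PHx24_ETO 3 was left out, when Lcn2 kept 18.9% in each arm. These are ratios of means without a test or a count over all genes, and the tested difference between the arms is the interaction that follows.

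**Figure D4:**
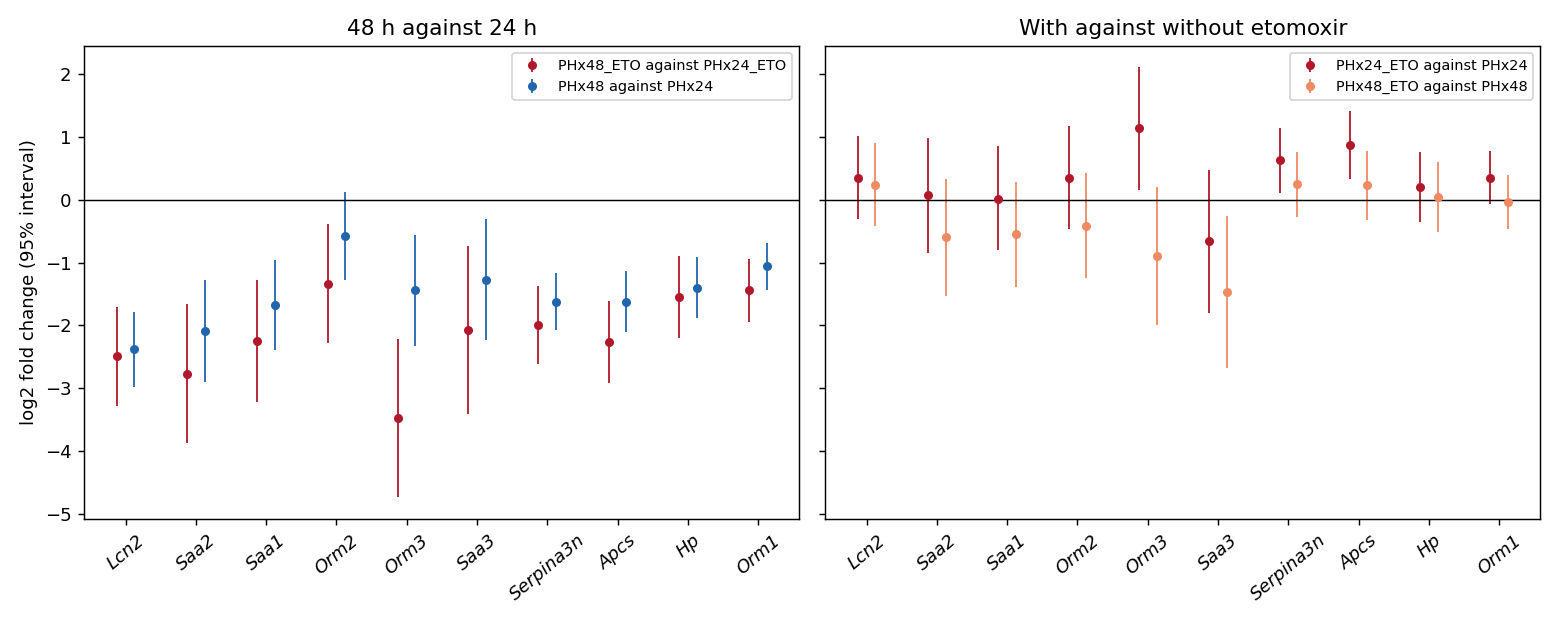
Left, log2 fold change of 48 h against 24 h with and without etomoxir. Right, log2 fold change of etomoxir-treated against untreated resected livers at 24 h and 48 h. Bars are 95% intervals from edgeR. All members but Orm2 in the untreated arm lie wholly below 0 at the left.

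Etomoxir did not move any member past the threshold at either time. In PHx24_ETO against PHx24, edgeR called 0 of 10 (1.58% of all genes were higher and 1.33% lower), with 3 members at an unadjusted p under 0.05, and DESeq2 called 1. The highest estimates were Orm3 at 1.14 (95% interval 0.16 to 2.11, edgeR adjusted p = 0.18), Apcs at 0.88 (0.33 to 1.42, adjusted p = 0.0654) and Serpina3n at 0.63 (0.11 to 1.14, adjusted p = 0.163). Apcs was the gene DESeq2 called. Leaving out PHx24_ETO library 1 brought these 3 past the threshold (Apcs 1.10 with adjusted p = 0.00687, Serpina3n 0.83 with 0.0356, Orm3 1.45 with 0.0495), and leaving out PHx24 library 7 brought Apcs past it (1.0, 0.0446). Leaving out PHx24_ETO library 2 brought Orm3 to 0.12 (adjusted p = 0.944). Among the most abundant members, the intervals were -0.80 to 0.85 for Saa1 and -0.84 to 0.99 for Saa2. They were -0.35 to 0.76 for Hp and -0.07 to 0.78 for Orm1. Effects within those limits are not excluded at this number of livers. No member had all PHx24_ETO livers above or below all PHx24 livers (1.83% and 1.41% of all genes did). The same held at 48 h, between PHx48_ETO and PHx48 livers (1.26% and 0.962% of all genes).

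In PHx48_ETO against PHx48, edgeR again called 0 of 10 (0.129% of all genes higher and 0.0808% lower), with 1 member at an unadjusted p under 0.05, and DESeq2 and limma called 0. That member was Saa3 (-1.47, 95% interval -2.68 to -0.25, edgeR adjusted p = 0.521), and Saa1 and Saa2 had values of -0.55 (-1.39 to 0.29) and -0.60 (-1.54 to 0.33). The test of the difference between the 48 h and the 24 h effect of etomoxir called 0 of 10 (0.0162% of all genes higher and 0% lower), with 1 member at an unadjusted p under 0.05, and DESeq2 and limma called 0. It was Orm3 (-2.03, -3.51 to -0.55, edgeR adjusted p = 0.405), which became -1.01 (0.759) without PHx24_ETO library 2. All 10 point values of this difference were negative, from -2.03 (Orm3) to -0.11 (Lcn2), beside a median of -0.006 over all genes tested. The 10 values come from the same libraries. However, 3 of them had a positive value in some other fit: up to 0.34 in Saa3 and 0.07 in Hp (both without PHx24_ETO library 3), and up to 0.05 in Lcn2 (without PHx48 library 7).

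The coefficient of variation between livers was larger in PHx24_ETO than in PHx24 for 10 of 10 members, a difference that was not tested. The share of all genes for which this held was not counted, so it cannot be called particular to the members. It was 65.1% in PHx24_ETO and 13.6% in PHx24 for Saa1, 70.2% and 15% for Saa2, 44.1% and 9.38% for Hp, and 57.0% and 24.6% for Serpina3n. For Lcn2 it was 25.4% and 22.3%. PHx24_ETO library 3 was highest of its 4 in 9 of 10 members and library 2 was lowest in 6. In the sham group library 3 was highest of 5 in 8 members and library 1, the library with the most muscle transcripts, was lowest in 8. In PHx48_ETO library 3 was highest in 8 and library 1 lowest in 7, and in PHx48 libraries 6 and 7 were highest in 4 and 5.

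**Figure D5:**
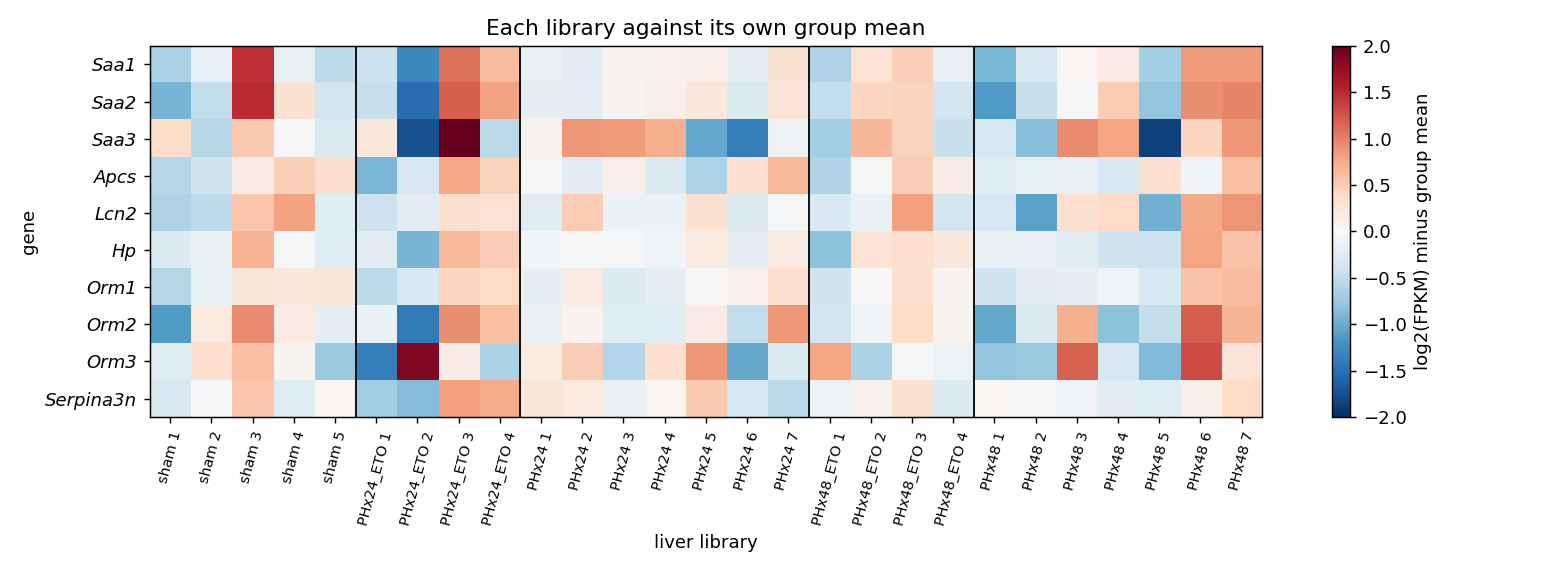
Level of each member in each library relative to its own group (log2 FPKM minus the group mean, colour scale from -2 to 2). PHx24_ETO libraries 2 and 3 stand at opposite ends for most genes, and Orm3 in library 2 goes the other way.

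Members were compared across livers within the 2 groups of 7, over 45 pairs each, on log2(FPKM + 1), with exact two-sided permutation p adjusted over the 90 pairs by Benjamini-Hochberg. In PHx24, 2 pairs passed: Saa1 with Saa2 (r = 0.954, rho = 0.964, permutation p = 0.000794, adjusted 0.0143) and Hp with Orm2 (r = 0.871, rho = 0.964, permutation p = 0.000595, adjusted 0.0134). The adjusted p of rho was 0.0417 for each. Without the 2 livers farthest from the median, r was 0.990 and 0.885. In PHx48, 3 pairs passed by r and 4 by rho. Those by r were Saa1 with Saa2 (r = 0.986, rho = 0.964), Saa1 with Orm1 (r = 0.940, rho = 0.964) and Saa2 with Orm1 (r = 0.903, rho = 1), each at an exact permutation p of 0.000397 for r, adjusted 0.0119. Without the 2 farthest livers these were 0.974, 0.919 and 0.859. The median r over the 45 pairs was 0.17 in PHx24, with 31 positive, and 0.66 in PHx48, with 44 positive. The lowest in PHx24 was Apcs with Serpina3n (r = -0.917, rho = -0.857, exact permutation p = 0.00496 and 0.0238, adjusted 0.0744 and 0.195). Genes that share reads, and livers that share a depth or scale, can correlate for that reason alone.

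Other positive acute-phase genes were called higher more often than lower at 24 h. Of 29 further positive acute-phase genes tested, 16 were higher and 3 lower in PHx24_ETO than in sham (median log2 fold change 1.2; 19.7% of all genes were higher and 15.6% lower), and 14 were higher and 3 lower in PHx24 (0.66; 19.1% and 15.8% of all genes). Lrg1, a leucine-rich plasma glycoprotein, averaged 2334 ± 618 FPKM in PHx24_ETO and 1514 ± 215 in PHx24, against 414 ± 185 in sham, with log2 fold changes of 2.50 (SE 0.273, edgeR adjusted p = 3.06e-07) and 1.89 (SE 0.248, 2.85e-06). Serpina3m, a neighbour of Serpina3n, rose by 2.80 (SE 0.194, 2.73e-10) in PHx24_ETO and by 1.8 (SE 0.174, 4.8e-08) in PHx24. Itih3, a hyaluronan-binding inhibitor chain, rose by 1.77 (SE 0.177, 8.54e-08) and by 1.22 (SE 0.159, 2.63e-06), and its relative Itih4 by 1.5 in PHx24 (SE 0.206, 4.75e-06). Mt1, a zinc-binding metallothionein, rose by 6.53 in PHx24_ETO (SE 0.702, 2.45e-07).

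At 48 h the list had 7 higher and 4 lower in PHx48_ETO (16.2% and 13.3% of all genes), and 4 higher and 7 lower in PHx48 (19.5% and 17% of all genes). Leaving out single libraries changed these counts. They ranged from 3 to 7 higher and 2 to 9 lower in PHx48_ETO, with 3 higher and 9 lower without sham 1, 4 higher and 2 lower without sham 2, and 3 higher and 2 lower without PHx48_ETO 2 or 3. In PHx48 the ranges were 4 to 7 higher and 4 to 9 lower, with 7 higher and 4 lower without sham 3. RLE size factors and DESeq2 each gave 8 lower in PHx48_ETO, and no filter on low values gave 3 higher and 2 lower. On equal totals (TPM) 9 were higher and 2 lower in PHx48_ETO, and 9 higher and 1 lower in PHx48. Of all 12376 genes, 4267 were then higher and 657 lower in PHx48_ETO, and 5687 and 655 in PHx48. Without the 4 libraries named above, 3 were higher in PHx48_ETO (12% of all genes) and 2 in PHx48 (14.5%), so no direction of this list at 48 h can be given.

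Serpina3m was still higher (0.99, SE 0.187, edgeR adjusted p = 0.000273 in PHx48_ETO, and 0.98, SE 0.168, 5.3e-05 in PHx48). Mt1 was higher in PHx48 (3.0, SE 0.573, 0.000193) and Vnn1, a pantetheinase, in PHx48_ETO (1.65, SE 0.298, 0.00016). Among the genes that were lower, Serpina3k, a kallikrein-binding relative, had -0.95 (SE 0.196, 0.000622) in PHx48_ETO and -1.12 (SE 0.166, 8.65e-06) in PHx48, Serpina1b had -0.53 in PHx48 (SE 0.124, 0.00141), a call lost on equal totals, and Ifi27 had -0.91 in PHx48_ETO (SE 0.227, 0.00342).

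Etomoxir-treated livers at 24 h were higher than untreated ones in 5 of these 29 genes and lower in 0. Of all genes 1.58% were higher and 1.33% lower. A difference between this list and the members, of which 0 of 10 were called, was not tested. The 5 genes were Serpina3m (1.0, SE 0.171, edgeR adjusted p = 0.00353), the fibrinogen chains Fgb (1.25, SE 0.218, 0.00362), Fga (1.24, SE 0.230, 0.00623) and Fgg (1.10, SE 0.215, 0.00788), and Mt1. With only these 2 groups in the fit, 0 of the 29 were called, as were 0 of all genes. At 48 h Vnn1 alone was called higher with etomoxir (1.32, SE 0.269, edgeR adjusted p = 0.0302), but the call was lost in 10 of the 11 fits that left out 1 library (adjusted p up to 0.125).

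Of the negative acute-phase genes, plasma proteins whose synthesis drops in this response, more were called lower than higher. Of 14 tested, 9 were lower and 0 higher in PHx24_ETO, PHx24 and PHx48_ETO, and 9 lower and 1 higher in PHx48, each against sham, where 15.6%, 15.8%, 13.3% and 17% of all genes were lower. With no filter on low values, 5 were lower in PHx24. On equal totals the counts lower and higher were 7 and 1 in PHx24_ETO, 6 and 2 in PHx24, 5 and 3 in PHx48_ETO, and 6 and 3 in PHx48. Over all 12376 genes they were 1098 and 3612, 896 and 3797, 657 and 4267, and 655 and 5687, in the same order. Ttr, the thyroid hormone carrier, had -1.18 (SE 0.207, edgeR adjusted p = 0.000106) in PHx24_ETO and -0.99 (SE 0.174, 9.32e-05) in PHx24. Apoa2 had -1.05 in PHx24_ETO (SE 0.254, 0.00238), and -1.15 (SE 0.255, 0.00131) in PHx48_ETO and -1.2 (SE 0.214, 8.89e-05) in PHx48. Fetub, a protease inhibitor, had -0.77 in PHx24 (SE 0.142, 0.000165), and -0.84 (SE 0.168, 0.000457) in PHx48_ETO and -0.83 (SE 0.142, 5.56e-05) in PHx48. Apoa1, the protein that serum amyloid A displaces, had -0.96 in PHx24 (SE 0.157, 3.6e-05) and was called higher in PHx24_ETO than in PHx24 (0.73, SE 0.166, 0.0175). This last call was lost without PHx24_ETO 2 or 3 (adjusted p = 0.0733 and 0.059), with no filter (0.0659) and with only these 2 groups in the fit (0.0767).

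Transcripts of the inducing pathway were called in both directions. Of 24 genes tested, 8 were higher and 6 lower in PHx24_ETO, 5 and 7 in PHx24, 3 and 4 in PHx48_ETO and 2 and 6 in PHx48, each against sham. In the same order, 19.7%, 19.1%, 16.2% and 19.5% of all genes were higher, and 15.6%, 15.8%, 13.3% and 17% lower. Several of the counts, such as 5 higher in PHx24, lie near these shares. Leaving out single libraries gave 7 to 8 higher and 5 to 6 lower in PHx24_ETO, 2 to 6 and 5 to 8 in PHx24, 0 to 4 and 3 to 5 in PHx48_ETO, and 1 to 4 and 5 to 7 in PHx48. On equal totals (TPM) the counts were 11 and 4, 9 and 4, 6 and 2, and 9 and 3. Over all 12376 genes the TPM counts were 3612 and 1098, 3797 and 896, 4267 and 657, and 5687 and 655, in the same order. Il6 itself was near 0 in every group (means of 0 to 0.0352 FPKM) and was not tested.

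Socs3, the feedback inhibitor that STAT3 induces, was called higher at 24 h, by 1.92 (SE 0.573, edgeR adjusted p = 0.011) in PHx24_ETO and by 1.43 (SE 0.518, 0.0333) in PHx24. The PHx24 call was lost in 6 of the 12 fits that left out 1 library (without sham 1, 2, 4 or 5, or PHx24 2 or 7, adjusted p of 0.0629 to 0.0943), with no filter (0.0514) and with only these groups (0.0813). The PHx24_ETO call held in all 9 such fits, and was lost with only these groups (0.0829). Without the 4 libraries named above neither passed (1.37 with adjusted p = 0.11 in PHx24_ETO, and 0.82 with 0.314 in PHx24). At 48 h Socs3 had 0.19 (SE 0.572, edgeR adjusted p = 0.836) in PHx48_ETO and 0.38 (SE 0.504, 0.589) in PHx48, but without sham 3 it had 1.33 (adjusted p = 0.0389) and 1.52 (0.00925), and passed in each. It also passed in PHx48 on equal totals (1.11, adjusted p = 0.0445).

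Stat3 was higher in PHx24_ETO (0.77, SE 0.171, edgeR adjusted p = 0.00111) and had 0.29 in PHx24 (SE 0.150, 0.144), where it passed without sham 3 (0.46, 0.0117) and on equal totals (0.50, 0.0161). The receptor chain Il6ra had -0.01 in PHx24_ETO (SE 0.223, 0.978) and was lower in PHx24 (-0.78, SE 0.194, 0.00274). It was called higher in PHx24_ETO than in PHx24 (0.77, SE 0.206, edgeR adjusted p = 0.0386), a call lost in 8 of the 11 fits that left out 1 library (adjusted p up to 0.126), with no filter (0.0608), on equal totals (0.0524) and with only these 2 groups (0.138). Il6st, which encodes gp130, had -0.40 in PHx48_ETO (SE 0.151, edgeR adjusted p = 0.0448) and -0.35 in PHx48 (SE 0.130, 0.0367) against sham. These calls were lost in 6 of 9 and 7 of 12 fits without 1 library, with no filter, without the 4 libraries named above and on equal totals, where the values were -0.11 (0.656) and 0.01 (0.956).

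Of the C/EBP factors, Cebpa, the form of resting hepatocytes, was lower in PHx24_ETO (-1.27, SE 0.219, edgeR adjusted p = 8.78e-05) and in PHx24 (-1.46, SE 0.184, 1.85e-06), and in PHx48 (-0.87, SE 0.183, 0.000554). Cebpb was called higher in PHx24_ETO (0.84, SE 0.237, edgeR adjusted p = 0.00719) and in PHx48 (0.59, SE 0.211, 0.03), with 0.47 in PHx24 (SE 0.210, 0.082). With only these groups the PHx24_ETO call was lost (0.0553), and the PHx48 call was lost without PHx48 3, 4 or 6, without sham 4 or 5, and without the 4 libraries named above (adjusted p of 0.0511 to 0.116). In PHx24 Cebpb passed without sham 3 (0.63, 0.0265) and on equal totals (0.71, 0.0162). Cebpd had 0.91 in PHx24_ETO (SE 0.353, edgeR adjusted p = 0.0454) and 0.49 in PHx24 (SE 0.314, 0.238). Its PHx24_ETO value was 0.45 (adjusted p = 0.344) without PHx24_ETO 2, and the call was also lost without PHx24_ETO 3, sham 3, 4 or 5, and under 5 other settings (RLE size factors, limma on either FPKM scale, the replicate block and only these groups).

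On the interleukin-1 and tumour necrosis factor side, Il1r1 was called higher in PHx24_ETO (1.55, SE 0.360, edgeR adjusted p = 0.00171) and in PHx24 (0.96, SE 0.322, 0.0225). The PHx24 call was lost without sham 1, 2, 4 or 5 or PHx24 2 (adjusted p of 0.0507 to 0.0784) and without the 4 libraries named above (0.65, 0.222). Its partner Il1rap was lower in PHx24_ETO (-1.37, SE 0.165, 1.25e-06) and in PHx24 (-0.94, SE 0.138, 1.01e-05). Tnfrsf1a was higher in PHx24_ETO (1.11, SE 0.132, 1.06e-06) and in PHx24 (0.81, SE 0.118, 9.36e-06). Nfkbia, the inhibitor of NF-kappaB, had -0.35 in PHx24_ETO (SE 0.254, 0.302) and -0.46 in PHx24 (SE 0.219, 0.109), where it passed without PHx24 2 or sham 4 (adjusted p = 0.00325 and 0.0472). It was lower in PHx48 (-0.76, SE 0.219, edgeR adjusted p = 0.00798), but not on equal totals (-0.37, 0.194) or without the 4 libraries named above (-0.58, 0.077).

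Of 10 receptors and partners of the secreted proteins tested, 1 was higher and 4 lower in PHx24_ETO, 1 and 2 in PHx24, 0 and 1 in PHx48_ETO and 0 and 2 in PHx48, each against sham. The 5, 3, 1 and 2 called in either direction stand beside 35.2%, 35.0%, 29.5% and 36.5% of all genes. On equal totals (TPM) the counts higher and lower were 2 and 3, 2 and 1, 2 and 0, and 2 and 0. Over all 12376 genes they were 3612 and 1098, 3797 and 896, 4267 and 657, and 5687 and 655. Hmox1, which degrades the haem that haptoglobin brings in, was higher in PHx24_ETO (1.57, SE 0.398, edgeR adjusted p = 0.00349) and in PHx24 (1.69, SE 0.365, 0.000782). Bdh2, a dehydrogenase reported to take part in making a mammalian siderophore, was lower in PHx24_ETO (-2.15, SE 0.392, 0.000165) and in PHx24 (-1.64, SE 0.317, 0.000249).

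The gene whose level followed the set most closely over the 27 libraries was Lrg1 (Pearson r = 0.913 with the mean of the members' standardised log2 values), followed by the septin gene Sept11 (0.912), Itih4 (0.911), the complement component C3 (0.908) and Ung, a uracil-DNA glycosylase (0.906). These are descriptions over libraries that fall into 5 groups and share depth and scaling. C3 averaged 2488 ± 954 FPKM in PHx24_ETO and 2210 ± 295 in PHx24, and 1455 ± 197 in PHx48_ETO and 1445 ± 112 in PHx48, against 996 ± 142 in sham. Ung averaged 9.48 ± 2.40 FPKM in PHx24_ETO and 7.98 ± 2.10 in PHx24, and 2.51 ± 0.558 in PHx48_ETO and 3.52 ± 0.815 in PHx48, against 1.43 ± 0.603 in sham.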

How the data were processed

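RNA of 27 mouse livers was extracted with TRIzol and made into libraries with a NEBNext Ultra kit, which does not mark strand, per the labels' protocols. Per the submitters' processing notes, CASAVA 1.8, DESeq2 1.20.0, featureCounts 1.5.0-p3, HISAT2 2.0.5 and fastp were used with the builds GRCm38 and mm10, with no role stated for any of them. Raw read counts per gene were deposited by the authors. The same deposited table holds FPKM values, which equal the count over gene length and over a library size of the authors' own. Total counts ran from 14903757 to 18446372, and 0 sample columns were left unmapped.

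Counts of genes with at least 1 FPKM in at least 4 libraries (12376 genes) were fitted with edgeR 4.0.16 in R 4.3.3 (TMM scaling, quasi-likelihood test, 1 mean per group over all 27 libraries), with Benjamini-Hochberg adjustment over all genes and a threshold of 0.05. The biological coefficient of variation was 0.266. Each SE is the absolute log2 fold change divided by the square root of F, and intervals are at 95%. The fit was first tested on simulated data. Levels are the deposited FPKM, and TPM was computed from them. Alternatives used DESeq2 1.42.0, limma 3.58.1 on log2(FPKM + 1), log2(FPKM + 0.1) and log2(TPM + 1), other size factors, no filter, the compared groups alone, a replicate block and the leaving out of each library. Tables and figures used Python 3.11.15, numpy 2.4.6, pandas 2.3.3, scipy 1.17.1 and matplotlib 3.10.9. Libraries of the same group correlated at up to 0.9875, and all 27 were kept as separate samples.

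The members and all gene lists were chosen with earlier results of these data known. Every member is described. Of the other lists, at most 4 called genes with the smallest p per comparison are named, with 9 fixed pathway genes. The table's Sept11 symbol had turned into a date and was restored from its gene ID. Gene lengths differ between members, so levels are compared between genes only as FPKM.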

Additional observations from a re-analysis of the deposited data

Results flagged for a closer look

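In 5 of the 50 gene and group combinations tested, 1 library stood far from the others of its group by Dixon's criterion, which chance alone meets in about 1 of 20. Orm2 was 563 FPKM in PHx24 library 7, against 217 to 343 FPKM in the other libraries of that group. Lcn2 was 260 FPKM in PHx48_ETO library 3, against 115 to 134 FPKM in the other 3. Hp was 1832 FPKM in PHx48_ETO library 1, the only low value of the 5, against 3755 to 4078 FPKM. In sham library 3, Saa1 was 104 FPKM against 24.3 to 33.8 FPKM in the other shams, and Hp was 3409 FPKM against 1741 to 2058 FPKM. What sets these libraries apart was not tested.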

How the results depend on the processing

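Of 1890 recomputed member fold changes, 1846 kept their side of the threshold, 27 lost and 17 gained a call, and 0 reversed a call. Values that were not called could change sign. Saa1 in PHx24_ETO against PHx24, for example, ran from -0.41 to 0.31 over these settings. Leaving out single libraries, the members called numbered 10 to 10 in PHx24 against sham, 9 to 10 in PHx24_ETO, 7 to 10 in PHx48 and 7 to 8 in PHx48_ETO, 7 to 9 in PHx48 against PHx24, 8 to 10 in PHx48_ETO against PHx24_ETO, 0 to 3 in PHx24_ETO against PHx24, and 0 to 0 in PHx48_ETO against PHx48 and in the difference between times. DESeq2 and the replicate block each called 1 member in PHx24_ETO against PHx24. Counts over all genes moved more, and the cause was not tested. PHx24_ETO against PHx24 gave 359 calls, against 764 with DESeq2, 196 with no filter, 0 with only these groups and 138 to 1199 without single libraries, the highest without PHx24_ETO 1. PHx48_ETO against PHx48 gave 26, against 71 with DESeq2, 11 with no filter, 44 with the replicate block and 1 to 25 without single libraries. The difference between times gave 2, against 43 with DESeq2, 1 on TPM and 0 to 239 without single libraries. With only the groups compared, PHx24_ETO against sham gave 2656 in place of 4362, and PHx48_ETO against PHx24_ETO 620 in place of 1862. Il6st in PHx48 against sham turned from -0.35 to 0.01 on log2(TPM + 1).

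TPM gives each library the same total, and it moved the median of all genes by 0.19 in PHx24, 0.21 in PHx24_ETO, 0.32 in PHx48 and 0.27 in PHx48_ETO against sham, and by 0.13 in PHx48 against PHx24. The share of calls that were higher became 80.9% (54.7% with TMM), 76.7% (55.8%), 89.7% (53.4%), 86.7% (54.8%) and 86.5% (53.4%) in that order, 73.4% (48.6%) in PHx48_ETO against PHx24_ETO, 27.1% (54.3%) in PHx24_ETO against PHx24 and 40% (61.5%) in PHx48_ETO against PHx48, where DESeq2 gave 49.3%. Relative to that median all 10 members stayed above 0 in the 4 comparisons with sham, the lowest by 0.09 in PHx48_ETO. Whether equal replicate numbers pair libraries was not settled. In no comparison was every same-number correlation over 0.1 (0.026 to 0.655 in PHx24 against sham), a rule that cannot exclude pairing. The value for number 1 in PHx24 against sham was 0.655, against at most 0.029 with other numbers. Sham 1 and PHx24 1 also had the highest summed skeletal muscle markers (4805 and 1830 FPKM), and their part in this value was not tested. For number 2 in PHx24_ETO against PHx24 the value was 0.411, against at most 0.128. The replicate block also brought Orm2 past the threshold in PHx48_ETO against PHx24_ETO.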

Other observations

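The 3 fibrinogen chains, which assemble the clotting protein and are acute-phase genes too, followed another course than the members. Fga averaged 4959 ± 1936 FPKM in PHx24_ETO and 2068 ± 475 FPKM in PHx24, against 1890 ± 536 FPKM in sham (SD, n = 4, 7 and 5). Fgb averaged 3487 ± 1309 FPKM in PHx24_ETO and 1447 ± 326 FPKM in PHx24, against 1463 ± 382 FPKM in sham. Fgg averaged 4692 ± 1789 FPKM in PHx24_ETO and 2163 ± 482 FPKM in PHx24, against 2204 ± 565 FPKM in sham. Without etomoxir the chains thus stood near sham at 24 h, when all 10 members were above it.

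Albumin, the main negative acute-phase protein, took 3.71 ± 0.721% of all counts in PHx24_ETO and 3.84 ± 0.755% in PHx24, and 7.30 ± 0.756% in PHx48_ETO and 5.93 ± 0.832% in PHx48, against 5.66 ± 1.98% in sham (SD, n = 4, 7, 4, 7 and 5). The summed Kupffer cell markers were 79.7 to 141 FPKM in PHx24_ETO and 141 to 261 FPKM in PHx24, against 157 to 247 FPKM in sham. At 48 h they were 120 to 257 FPKM in PHx48_ETO and 88.6 to 265 FPKM in PHx48. Between PHx24_ETO and PHx24, edgeR called 0 of the 10 markers higher and 1 lower (1.58% and 1.33% of all genes). Marco went against the sum, with means of 16.3 FPKM in PHx24_ETO and 28.6 FPKM in PHx24, against 2.38 FPKM in sham.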
